A study of Mus musculus with 20 samples.

Results

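Transcripts of 50 genes of the TGF-beta and BMP pathways were followed in mouse mammary tumors and in tumor cells with and without cathepsin D, the lysosomal aspartic protease encoded by Ctsd. The 50 genes were chosen by name among 45706 gene identifiers and all 50 were found. They comprise 7 ligands of the TGF-beta, activin and GDF type, 4 BMP ligands, 5 genes of ligand latency, storage and processing and 6 antagonists and follistatin family members. On the receiving side they comprise 6 type I receptors, 4 type II receptors, 2 co-receptors, 5 receptor-activated and common Smads, 6 inhibitory Smads, ubiquitin ligases and corepressors and 5 target genes.

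TGF-beta family ligands are secreted dimers that bring type II and type I receptor kinases together. The activated type I receptor phosphorylates Smad2 and Smad3 for TGF-beta and activin, or Smad1 and Smad5 for BMPs, and these enter the nucleus with Smad4. TGF-beta is stored in the matrix in a latent form bound by LTBPs, antagonists such as noggin trap BMPs outside the cell, and Smad6, Smad7 and the Smurf ubiquitin ligases limit the signal inside it. In mammary epithelium TGF-beta is known to restrain proliferation and, in tumors, to accompany a mesenchymal change of the cells.

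All material came from C57BL/6N mice with the PyMT oncogene, which the MMTV promoter drives in mammary epithelium. RNA of 4 Ctsd-/- tumors, in which MMTV-cre deletes Ctsd in the epithelium while other cells of the tumor keep the gene, was compared with RNA of 4 control tumors competent for CTSD. All 8 were labelled as 18 weeks of age. The cells were 2 spontaneously immortalized lines, Ctsd+/+ and Ctsd-/-, derived from end-stage tumors of Ctsd+/+ and MMTV-cre;Ctsd-/- PyMT mice, so that line and genotype cannot be told apart. They were starved in DMEM/F12 with 1% fetal calf serum. Groups named 1% FCS were starved for 10 days and groups named 1% FCS LT, or LT, for 12 weeks, and each of the 4 groups held 3 replicates. The study's methods describe the cell replicates as independent experiments, so p-values in cells measure the spread between experiments with the same line, not between animals.

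Libraries held 49725437 to 64291587 counts on genes in tumors and 33622831 to 40239762 in cells. Levels are given as CPM, counts scaled to library size with trimmed means of M-values. A log2 FC is given ± its SE, with the p of edgeR's quasi-likelihood test, adjusted by Benjamini-Hochberg over all genes tested unless called unadjusted. Ctsd, as the check of the labels, stood at 1860, 2617, 1781 and 2532 CPM in the control tumors and 797, 360, 1295 and 1233 in the Ctsd-/- tumors, and the lowest control tumor was above the highest Ctsd-/- tumor. In cells it stood at 4199, 2858 and 1267 CPM in Ctsd+/+ and 192, 141 and 131 in Ctsd-/- cells of the 1% FCS groups, and at 1627, 1667 and 1895 in Ctsd+/+ and 123, 114 and 151 in Ctsd-/- cells of the LT groups. Every Ctsd-/- cell library was below every Ctsd+/+ library. Luminal epithelial markers were detected in all 4 cell groups, with 1 of the 8 under 1 CPM in every library of each group. Their summed level was 1047 to 1798 CPM in 1% FCS Ctsd+/+ cells against 4507 to 10471 in the other 9 libraries. Fibroblast and mural markers went the other way, with a summed level of 213 to 991 CPM in 1% FCS Ctsd+/+ cells, 3.78 to 6.03 in 1% FCS Ctsd-/- cells, 2.65 to 5.43 in 1% FCS LT Ctsd+/+ cells, and from 7.93 up to 96.1 in 1% FCS LT Ctsd-/- cells. This list was carried by Pdgfrb (552, 694 and 160 CPM in 1% FCS Ctsd+/+ cells), Col3a1 (18.4, 265 and 38.3) and Pdgfra (74.3, 28.1 and 10.9). Of its 8 markers, 3 were under 1 CPM in all 3 libraries of that group, with Lum and Thy1 at 0. All 5 markers that were tested were called lower in 1% FCS Ctsd-/- than in 1% FCS Ctsd+/+ cells. The part of these marker differences in the results on cells below was not tested.

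Across the 12 cell libraries the 50 members were most often highest in 1% FCS Ctsd+/+ cells, with the highest group mean for 29 of 50, and most often lowest in 1% FCS LT Ctsd+/+ cells, with the lowest group mean for 28 of 50. For 13 members every 1% FCS Ctsd+/+ library lay above all other cell libraries. For 19 members every 1% FCS LT Ctsd+/+ library lay below all others. Of all genes tested, 55.2% did not overlap between the genotypes in 1% FCS and 54.2% in 1% FCS LT. Over time the share without overlap was 53.7% in Ctsd+/+ and 25.4% in Ctsd-/- cells. These shares compare groups in pairs and are no baseline for the counts of a single group against all others. The order of the 4 groups, with those counts, was taken for the members only, so whether it is particular to them was not tested. The heat map of the members shows this order by role.

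**Figure D1:**
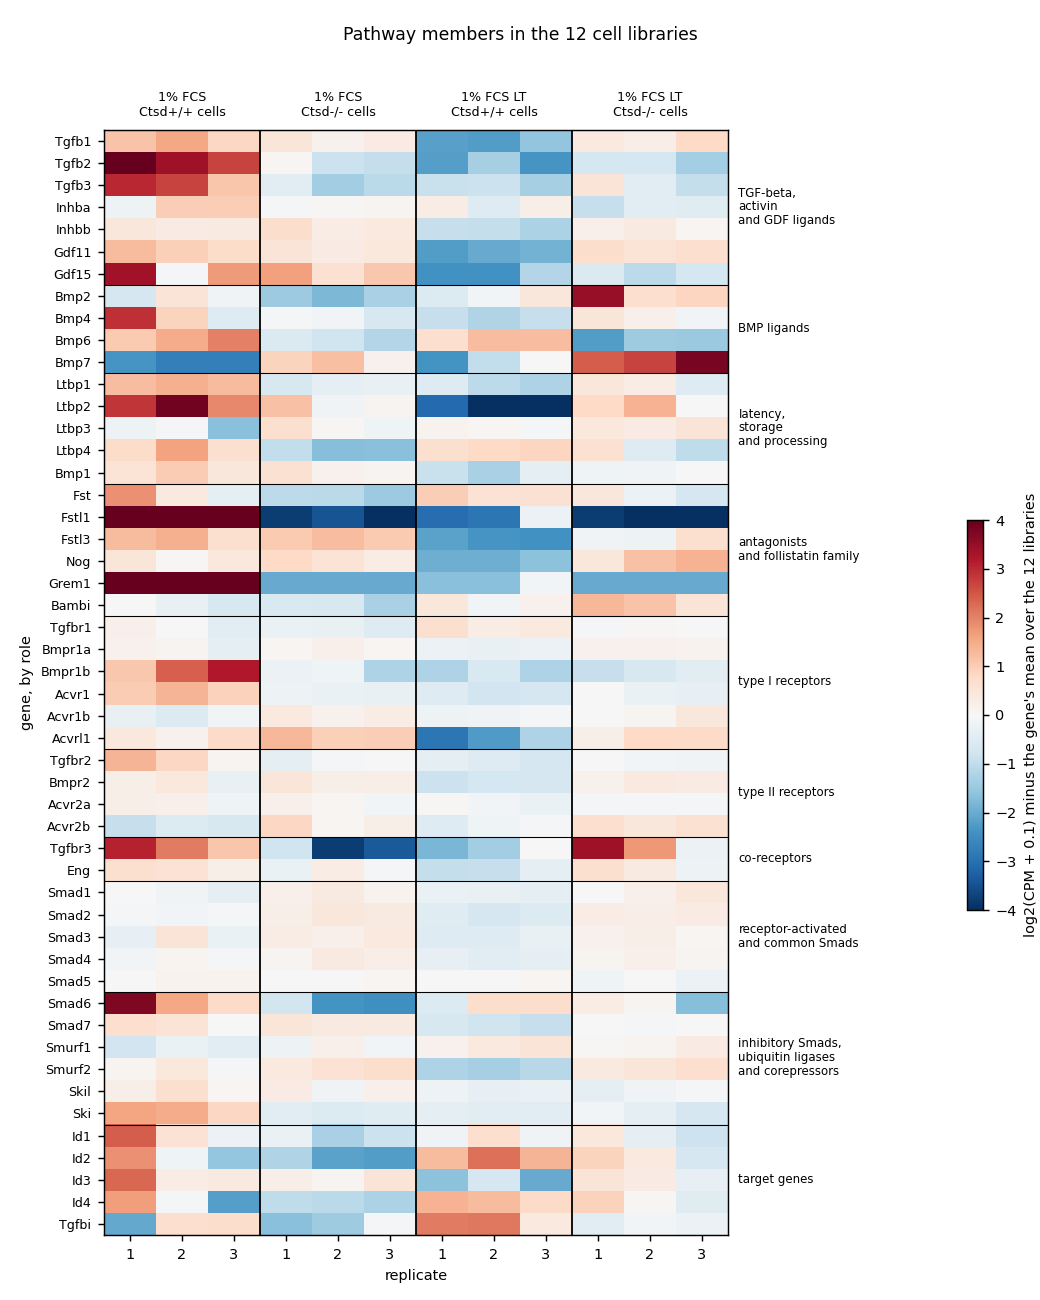
Heat map of the 50 members (rows, by role) in the 12 cell libraries (columns, replicates 1 to 3 of each group); color gives log2(CPM + 0.1) minus the gene's mean over the 12 libraries, limited to 4 in either direction. Red prevails in the 1% FCS Ctsd+/+ cells and blue in the 1% FCS LT Ctsd+/+ cells, whereas the rows of the receptor-activated and common Smads are pale throughout.

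Short-term starved cells were compared between the genotypes first. In 1% FCS, 17 of 50 members were lower and 2 were higher in Ctsd-/- than in Ctsd+/+ cells, with thresholds of 0.05 for the adjusted p and 1 for the size of the log2 fold change (log2 FC). Of all 15178 genes tested, 14.6% were lower and 10.3% higher. The median log2 FC of the members was -0.62, against 0.00 over all genes. The members that were lower include Tgfb2, Tgfb3, the latent TGF-beta binding proteins Ltbp1, Ltbp2 and Ltbp4, the antagonists Fstl1, Grem1 and Fst, and the BMP ligands Bmp4 and Bmp6. Also lower were the receptors Acvr1 and Bmpr1b, the co-receptor Tgfbr3, the inhibitory Smad6, the corepressor Ski and the targets Id1 and Id2. Bmp7 and the activin receptor Acvr2b were higher. The cell libraries carry 3 different LR numbers in their names, whose meaning the labels do not give. Replicate 1 of both 1% FCS groups carries LR-38797, replicate 3 of both LT groups LR-38863, and the other cell libraries LR-38862. These numbers are thus partly tied to time. Among the 8 libraries with LR-38862, 17 of these 19 calls remained, without Bmp4 and Acvr2b. Of 21 alternative settings, 6 lost the call of Bmp4, 5 that of Id2, 3 that of Acvr2b and 2 that of Id1, and the other 15 members were called in each.

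Among long-term starved cells most calls went in the other direction, but largely for other members. In 1% FCS LT, 15 members were higher and 3 were lower in Ctsd-/- than in Ctsd+/+ cells, where 9.24% of all genes were higher and 10.1% lower. The median of the members was 0.66, or 0.61 with genes against a group at or under 3 counts set at their bound, against 0.01 over all genes. Higher were Tgfb1, Gdf11, Inhbb, Bmp2, Bmp7, Ltbp1, Ltbp2, Fstl3, Nog, the receptors Acvrl1 and Bmpr2, the co-receptors Eng and Tgfbr3, the ubiquitin ligase Smurf2 and the target Id3. Lower were Bmp6, Fstl1 and Tgfbi. Only Ltbp1, Ltbp2 and Tgfbr3 were called lower in 1% FCS and higher in 1% FCS LT. Bmp7 was called higher, and Bmp6 and Fstl1 lower, at both times. Within LR-38862, 17 of the 18 calls remained, without Fstl1. The call of Tgfbi was lost in 6 of 21 settings, those of Bmp2 and Tgfbr3 in 5 each, Id3 and Ltbp1 in 4 each, Fstl1 in 2, and Bmpr2 and Eng in 1 each. Without replicate 1 of the 1% FCS LT Ctsd-/- cells the log2 FC was 0.89 for Bmp2 and 1.97 for Tgfbr3.

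Each line was then compared with itself over time. In Ctsd+/+ cells, 25 of 50 members were lower and 1, Bmp7, was higher in 1% FCS LT than in 1% FCS, against 12.3% lower and 11% higher among all genes. The median log2 FC of the members was -1.20, against 0.00 over all genes. In Ctsd-/- cells 2 members, Bmp2 and Bambi, were higher and 0 were lower, against 1.11% and 0.369% of all genes. At an unadjusted p under 0.05, edgeR gave 8 members that were higher and 5 that were lower in this comparison. DESeq2 called 5 members higher there and limma-voom called 1, and both called 0 lower. The median of the members in Ctsd-/- cells was 0.06, or 0.10 with genes at their bound, against 0.00 over all genes. Within LR-38862, 23 of the 26 calls in Ctsd+/+ cells remained, and both calls in Ctsd-/- cells. In Ctsd+/+ cells the call of Smad6 was lost in 8 of 21 settings, those of Bmp7 and Tgfbr3 in 3 each and that of Tgfbr2 in 1.

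Whether both changes differed was tested as their difference, the change in Ctsd-/- cells minus the change in Ctsd+/+ cells. It passed the thresholds for 24 of 50 members, and each was positive, while 0 were negative. Among all genes, 11% passed with a positive and 8.12% with a negative difference. The median difference of the members was 1.38, against 0.00 over all genes. DESeq2 called 27 members positive and limma-voom 22, and both called 0 negative. A single member, Smurf1, had a negative difference at an unadjusted p under 0.05, with a log2 difference of -0.65 ± 0.22 (adjusted p = 0.0422). Within LR-38862, 21 of the 24 calls remained, without Tgfbr2, Bmpr1b and Bambi. The calls of Bambi and Ltbp4 were lost in 10 of 21 settings each, Smad6 in 8, Bmpr1b in 5, Bmp1 in 4, Tgfbr2 in 2, and Bmp2, Bmp4 and Eng in 1 each. These 5 comparisons share libraries and are not independent of each other. The side-by-side plot of both changes shows that 21 of these 24 members had a negative change past the thresholds in Ctsd+/+ cells. That change is a term of the difference by which the 24 were called, so the count is not a separate result. The same share was not counted over all genes.

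**Figure D2:**
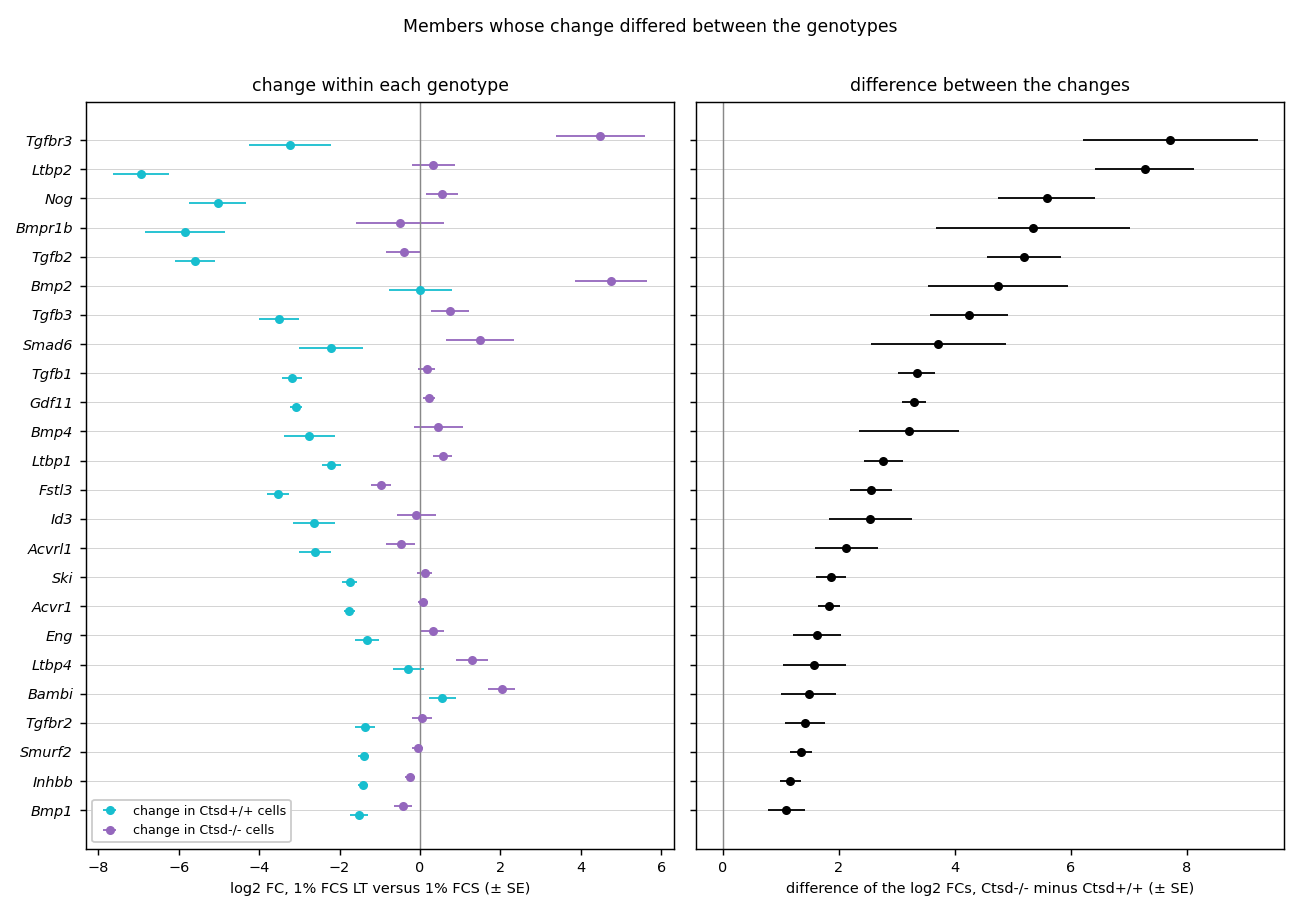
Left, log2 FC of 1% FCS LT versus 1% FCS (± SE, 3 libraries per group) in Ctsd+/+ and in Ctsd-/- cells; right, the difference of both changes (± SE), for the 24 members called in the test of the difference. The changes in Ctsd+/+ cells lie left of 0 for most genes, and the differences all lie right of 0, between 1.10 for Bmp1 and 7.72 for Tgfbr3.

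Of the TGF-beta ligands, Tgfb1, the main isoform of many tissues, was measured at 41.8, 54.5 and 33.1 CPM in Ctsd+/+ and 26.5, 21.3 and 23.6 in Ctsd-/- cells of the 1% FCS groups, and at 4.08, 3.92 and 6.24 in Ctsd+/+ and 24.9, 22.8 and 32.4 in Ctsd-/- cells of the LT groups. All 3 libraries of 1% FCS LT Ctsd+/+ cells lay far below the other 9. The log2 FC of Ctsd-/- over Ctsd+/+ cells was -0.86 ± 0.22 (adjusted p = 0.00696) in 1% FCS, short of a log2 FC of 1, and 2.49 ± 0.23 (adjusted p = 1.02e-05) in 1% FCS LT. Over time it was -3.18 ± 0.24 (adjusted p = 1.55e-06) in Ctsd+/+ and 0.17 ± 0.22 (adjusted p = 0.744) in Ctsd-/- cells. The gene spans chr7:25687002-25705077 of GRCm38 on the plus strand.

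Tgfb2, an isoform known from epithelial-mesenchymal transitions of development, was measured at 105, 55.5 and 34.6 CPM in Ctsd+/+ and 5.45, 2.82 and 2.66 in Ctsd-/- cells of the 1% FCS groups, and at 1.05, 2 and 0.938 in Ctsd+/+ and 3.14, 3.17 and 1.96 in Ctsd-/- cells of the LT groups. Here 1% FCS Ctsd+/+ cells stood above all other groups without overlap. The genotype difference in 1% FCS was -4.15 ± 0.46 (adjusted p = 2.17e-05), and the change of Ctsd+/+ cells over time was -5.61 ± 0.50 (adjusted p = 4.9e-06). In 1% FCS LT the genotypes differed by 1.05 ± 0.46 (adjusted p = 0.0911), which did not pass. Tgfb3, the third isoform, was at 394, 315 and 104 CPM in Ctsd+/+ and 36.2, 18.3 and 22.7 in Ctsd-/- cells of the 1% FCS groups, and at 26, 26.7 and 18.9 in Ctsd+/+ and 68.8, 35.8 and 24.8 in Ctsd-/- cells of the LT groups. Tgfb3 likewise had every 1% FCS Ctsd+/+ library above the rest. It differed by -3.40 ± 0.50 (adjusted p = 0.00019) between genotypes in 1% FCS and by -3.51 ± 0.51 (adjusted p = 0.000173) over time in Ctsd+/+ cells.

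Upstream sequences of Tgfb2, the co-receptor gene Eng and the ubiquitin ligase gene Smurf2 are given as members of different roles whose changes differed between the genotypes. Each run holds the 250 bases before the RefSeq start of transcription in GRCm38.p6, 5′ to 3′ on the gene's strand, with CAGAC (a Smad box) and GGCGCC (a GC-rich Smad motif) in capitals on either strand, the reverse of CAGAC being read as GTCTG.
Tgfb2, chr1:186705990-186706239, minus strand: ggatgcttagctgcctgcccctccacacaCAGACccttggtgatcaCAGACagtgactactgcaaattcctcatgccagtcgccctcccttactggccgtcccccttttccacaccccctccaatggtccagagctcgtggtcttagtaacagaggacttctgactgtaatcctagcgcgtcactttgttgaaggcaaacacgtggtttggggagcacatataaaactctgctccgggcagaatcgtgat
Eng, chr2:32646345-32646594, plus strand: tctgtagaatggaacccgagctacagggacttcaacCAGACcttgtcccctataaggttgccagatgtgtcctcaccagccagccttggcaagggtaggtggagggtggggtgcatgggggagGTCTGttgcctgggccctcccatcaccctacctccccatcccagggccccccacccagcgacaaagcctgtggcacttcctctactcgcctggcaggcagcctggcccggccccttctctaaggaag
Smurf2, chr11:106920716-106920965, minus strand: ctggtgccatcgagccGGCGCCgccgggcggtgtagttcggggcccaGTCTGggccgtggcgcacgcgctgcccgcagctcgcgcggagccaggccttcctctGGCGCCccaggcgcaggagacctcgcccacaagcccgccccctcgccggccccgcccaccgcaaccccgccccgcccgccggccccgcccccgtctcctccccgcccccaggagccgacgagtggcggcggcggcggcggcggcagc
RefSeq promoters were matched for 36 of the 50 members, 17 of them among the 24 with a differing change. These 17 have 22 promoters, since some have several starts, and the 36 have 45. CAGAC was found in 11 of the 22 promoters and in 42.2% of all 32851 promoters of this length, and GGCGCC in 4 of 22 and in 9.59%. The count of GGCGCC takes a single site of Ltbp4 more than once, since it lies in overlapping windows. By gene, CAGAC was found for 9 and GGCGCC for 3 of the 17. The palindrome GTCTAGAC was found in 0 of the 45 and in 0.167% of all promoters. Each sequence printed above holds a motif. No motif was found for Tgfb1, Bmp4, Acvr1, Gdf11, Inhbb and Smad6, whose changes also differed between the genotypes. A match is a run of letters in this window and was not tested as a binding site.

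Gdf11, a ligand of activin type II receptors, was at 51.8, 41 and 35.8 CPM in Ctsd+/+ and 30.5, 26.9 and 28.5 in Ctsd-/- cells of the 1% FCS groups, and at 4.4, 5.17 and 5.63 in Ctsd+/+ and 34.8, 31.3 and 34.3 in Ctsd-/- cells of the LT groups. Its 3 values in 1% FCS LT Ctsd+/+ cells lay below all others, and the change of that line was -3.08 ± 0.16 (adjusted p = 1.39e-07) against 0.22 ± 0.14 (adjusted p = 0.447) in Ctsd-/- cells. The difference of both changes, 3.30 ± 0.21 (adjusted p = 1.46e-06), had the smallest adjusted p of the members. Inhbb, the activin beta B subunit, was at 127, 117 and 121 CPM in Ctsd+/+ and 153, 115 and 124 in Ctsd-/- cells of the 1% FCS groups, and at 49.7, 48.3 and 38.8 in Ctsd+/+ and 108, 120 and 99.2 in Ctsd-/- cells of the LT groups. The 1% FCS LT Ctsd+/+ libraries stood below all others, with a change of -1.42 ± 0.13 (adjusted p = 6.86e-06). Inhba, the activin beta A subunit, passed in none of the 5 comparisons, with log2 FCs between -0.65 and -0.01. Gdf15, a stress-induced ligand, fell in Ctsd+/+ cells by 5.14 on the log2 scale (adjusted p = 0.000943), from 6.9, 0.55 and 2.12 CPM to 0.027, 0.0266 and 0.203, and by 3.90 without replicate 1 of 1% FCS.

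**Figure D3:**
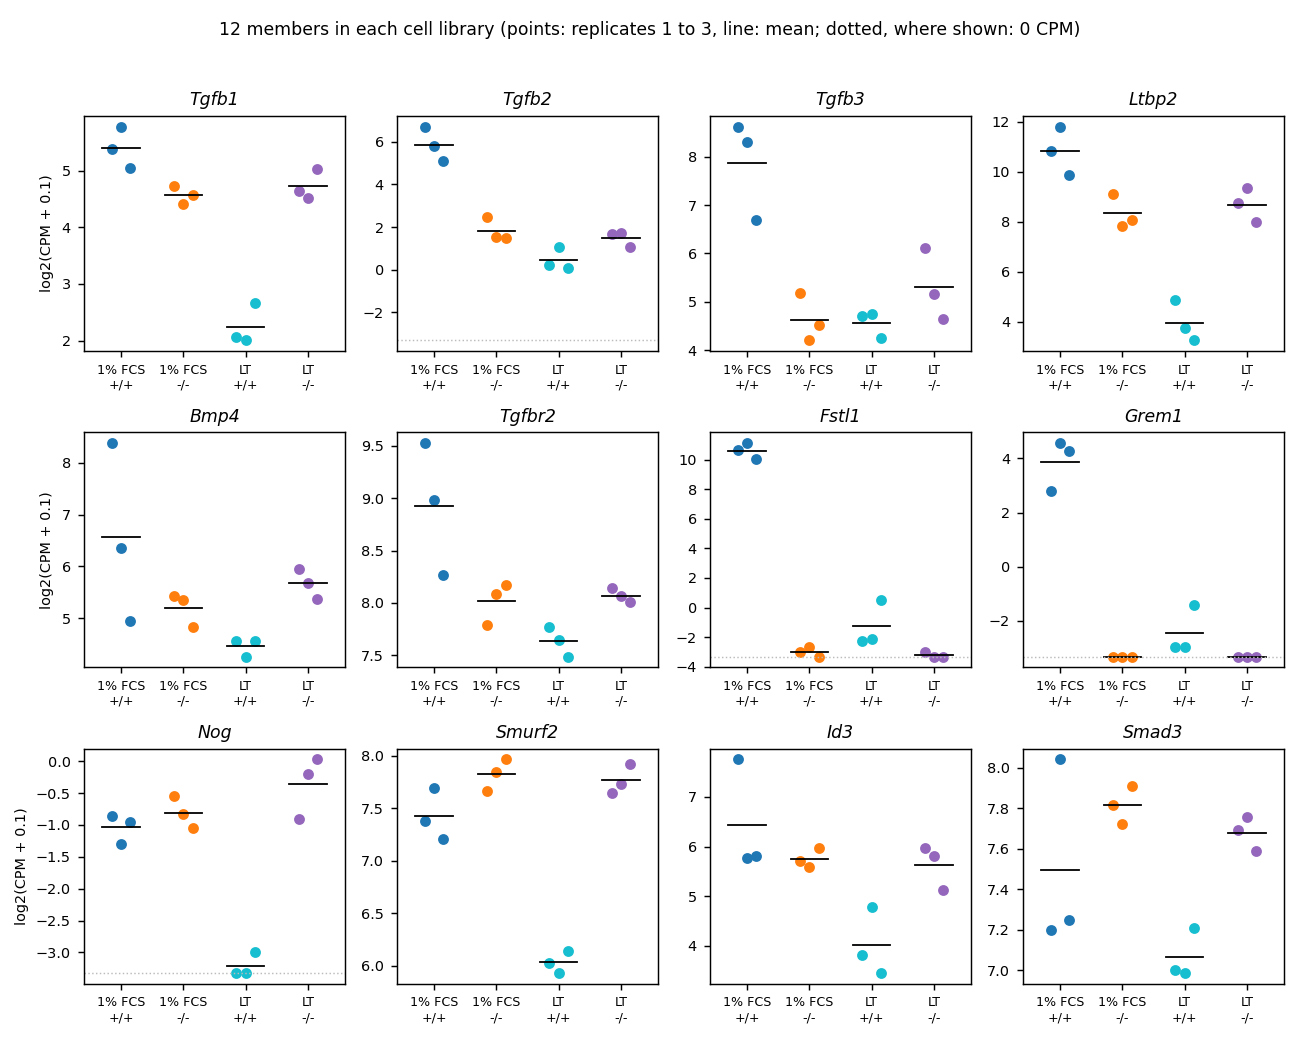
Levels of 12 members in each cell library, as log2(CPM + 0.1) on the y axis, by group on the x axis (+/+ and -/- give the Ctsd genotype, LT the 12-week culture), with points for the 3 replicates and a line for their mean. Tgfb2, Tgfb3, Fstl1 and Grem1 are high in the 1% FCS +/+ libraries alone, Tgfb1, Nog and Smurf2 are low in the LT +/+ libraries alone, and Smad3 has the narrowest range of the 12 panels, each of which has its own y axis.

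Of the storage and processing genes, Ltbp2, which codes for a microfibril protein of the LTBP family, was at 1812, 3571 and 946 CPM in Ctsd+/+ and 558, 226 and 267 in Ctsd-/- cells of the 1% FCS groups, and at 28.8, 13.2 and 9.43 in Ctsd+/+ and 426, 649 and 252 in Ctsd-/- cells of the LT groups. The lowest values were those of 1% FCS LT Ctsd+/+ cells and the highest those of 1% FCS Ctsd+/+ cells, with both Ctsd-/- groups between them. It was lower in Ctsd-/- cells in 1% FCS, -2.59 ± 0.58 (adjusted p = 0.00302), and higher in 1% FCS LT, 4.69 ± 0.64 (adjusted p = 0.000147). Its change over time was -6.94 ± 0.71 (adjusted p = 1.33e-05) in Ctsd+/+ cells and 0.34 ± 0.54 (adjusted p = 0.799) in Ctsd-/- cells. Ltbp1, which anchors latent TGF-beta in the matrix, was at 721, 817 and 740 CPM in Ctsd+/+ and 197, 234 and 251 in Ctsd-/- cells of the 1% FCS groups, and at 215, 150 and 130 in Ctsd+/+ and 421, 377 and 216 in Ctsd-/- cells of the LT groups. The 1% FCS Ctsd+/+ libraries did not overlap with the others, and the genotype difference in 1% FCS was -1.74 ± 0.24 (adjusted p = 0.000116). Ltbp4 was lower in 1% FCS Ctsd-/- cells (-2.49 ± 0.41, adjusted p = 0.00038), with 8.52, 5.2 and 5.26 CPM against 28.3, 51.7 and 26.6. Bmp1, the procollagen C-proteinase that also processes LTBP1, changed by -1.51 ± 0.23 (adjusted p = 0.000234) in Ctsd+/+ cells over time. Ltbp3 was the highest member per kilobase of exon in 3 of the 4 cell groups, at 152, 137 and 176 CPM per kb in 1% FCS Ctsd-/-, 1% FCS LT Ctsd+/+ and 1% FCS LT Ctsd-/- cells, and passed in none of the comparisons.

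The BMP ligand Bmp4 was at 333, 81.3 and 30.7 CPM in Ctsd+/+ and 43.1, 40.8 and 28.2 in Ctsd-/- cells of the 1% FCS groups, and at 23.3, 19 and 23.5 in Ctsd+/+ and 61.9, 50.9 and 41.4 in Ctsd-/- cells of the LT groups. Replicate 1 of the 1% FCS Ctsd+/+ cells stood far above replicates 2 and 3 of its group, and replicate 3 overlapped with the Ctsd-/- cells. The genotype difference in 1% FCS was -1.99 ± 0.62 (adjusted p = 0.0193), and it was lost without replicate 1 of that group (-0.58), within LR-38862 (-0.70), in limma-voom and without replicate 2 or 3 of the 1% FCS Ctsd-/- cells. The fall over time in Ctsd+/+ cells, -2.76 ± 0.64 (adjusted p = 0.00406), was still called without that replicate, at -1.35, and within LR-38862, at -1.40. The same replicate was the highest of the 12 cell libraries for 14 of 50 members, among them Id1, Id3, Smad6 and Fst. Replicate 2 of the 1% FCS Ctsd+/+ cells was the highest for 12, and neither was counted over all genes.

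Bmp7 was nearly absent from 1% FCS Ctsd+/+ cells. It was measured at 0.03, 0 and 0 CPM in Ctsd+/+ and 1.14, 1.45 and 0.65 in Ctsd-/- cells of the 1% FCS groups, and at 0.027, 0.24 and 0.558 in Ctsd+/+ and 3.5, 4.22 and 9.17 in Ctsd-/- cells of the LT groups. In 1% FCS it was at least 11.8-fold higher in Ctsd-/- cells, taken against 3 counts per library. In Ctsd+/+ cells the higher level in 1% FCS LT rested on 1, 9 and 22 counts and overlapped with 1% FCS. That call was lost in limma-voom, within LR-38862 and without LT replicate 3. In 1% FCS LT the difference was 4.33 ± 0.70 (adjusted p = 0.00049), and each Ctsd-/- library lay above each Ctsd+/+ library. Bmp6 went the other way at 2.76, 3.73 and 5.47 CPM in Ctsd+/+ and 0.827, 0.685 and 0.503 in Ctsd-/- cells of the 1% FCS groups, and at 2.08, 3.14 and 3.12 in Ctsd+/+ and 0.192, 0.412 and 0.387 in Ctsd-/- cells of the LT groups. It was lower in Ctsd-/- cells at both times, by -2.56 ± 0.36 (adjusted p = 0.000124) in 1% FCS and -3.07 ± 0.38 (adjusted p = 7.47e-05) in 1% FCS LT, with no overlap. Bmp2 rose over time in Ctsd-/- cells (4.76 ± 0.90, adjusted p = 0.023), from 0.0973, 0.0548 and 0.118 CPM to 5.91, 0.747 and 0.871. Without replicate 1 of the 1% FCS LT libraries, the highest, the rise was 3.12 and still called, and the call was lost in limma-voom and without any 1 of the 3 libraries of 1% FCS Ctsd-/- cells or 1% FCS replicate 1 of both genotypes.

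The antagonists include transcripts that were absent or nearly absent from whole groups. Fstl1, a secreted follistatin-like glycoprotein that binds BMP4 (chr16:37776873-37836514, plus strand), was at 1608, 2229 and 1059 CPM in Ctsd+/+ and 0.0243, 0.0548 and 0 in Ctsd-/- cells of the 1% FCS groups, and at 0.108, 0.133 and 1.34 in Ctsd+/+ and 0.0239, 0 and 0 in Ctsd-/- cells of the LT groups. It was the highest member per kilobase of exon in 1% FCS Ctsd+/+ cells, at 332 CPM per kb, and was at 2 counts or fewer in each library of Ctsd-/- cells. In 1% FCS it was at least 18404-fold lower in Ctsd-/- cells. Its change in Ctsd+/+ cells was -11.56 ± 0.71 (adjusted p = 3.66e-07), from a mean of 1632 CPM. Grem1, which codes for the BMP antagonist gremlin, was at 6.81, 23.6 and 19.4 CPM in Ctsd+/+ and 0, 0 and 0 in Ctsd-/- cells of the 1% FCS groups, and at 0.027, 0.0266 and 0.279 in Ctsd+/+ and 0, 0 and 0 in Ctsd-/- cells of the LT groups. All 6 Ctsd-/- libraries were at 0, and in 1% FCS it was at least 187-fold lower in Ctsd-/- cells. The difference of both changes could not be sized for Fstl1 and Grem1, since both Ctsd-/- groups lay at or under 3 counts per library. The summed fibroblast and mural markers given above were likewise highest in 1% FCS Ctsd+/+ cells. In the LT groups they were at 7.93 to 96.1 CPM in Ctsd-/- and 2.65 to 5.43 CPM in Ctsd+/+ cells. Fstl1 and Grem1 had few counts in both LT groups. In Ctsd+/+ cells these were 4, 5 and 53 for Fstl1 and 1, 1 and 11 for Grem1. In Ctsd-/- cells they were 1, 0 and 0 for Fstl1 and 0, 0 and 0 for Grem1. The part of the fibroblast and mural markers in the values of Fstl1 and Grem1 was not tested. The call of Fstl1 in 1% FCS LT was lost within LR-38862 and without LT Ctsd+/+ replicate 3 (-3.43).

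Fst, follistatin, was at 44, 16.4 and 9.37 CPM in Ctsd+/+ and 6.01, 5.83 and 4.52 in Ctsd-/- cells of the 1% FCS groups, and at 24.8, 18.6 and 19.1 in Ctsd+/+ and 17.1, 10.6 and 7.72 in Ctsd-/- cells of the LT groups. It was lower in Ctsd-/- cells in 1% FCS (-2.09 ± 0.48, adjusted p = 0.00358), with each Ctsd-/- library below each Ctsd+/+ library, and by -1.24 without replicate 1 of 1% FCS Ctsd+/+ cells. Nog, noggin, was low throughout, at 0.45, 0.305 and 0.419 CPM in Ctsd+/+ and 0.584, 0.466 and 0.384 in Ctsd-/- cells of the 1% FCS groups, and at 0, 0 and 0.0254 in Ctsd+/+ and 0.431, 0.772 and 0.919 in Ctsd-/- cells of the LT groups. The 1% FCS LT Ctsd+/+ cells held at most 1 count per library, so that Nog was at least 8.73-fold higher in 1% FCS LT Ctsd-/- cells and at least 4.83-fold lower in 1% FCS LT than in 1% FCS Ctsd+/+ cells. Fstl3, an activin antagonist, was at 21.3, 23.8 and 13.7 CPM in Ctsd+/+ and 18.5, 20.7 and 18.1 in Ctsd-/- cells of the 1% FCS groups, and at 1.92, 1.62 and 1.55 in Ctsd+/+ and 7.92, 7.67 and 13.7 in Ctsd-/- cells of the LT groups. All 1% FCS LT Ctsd+/+ libraries lay below the others, and Fstl3 changed by -3.53 ± 0.28 (adjusted p = 1.99e-06) in Ctsd+/+ cells. In Ctsd-/- cells the change was -0.97 ± 0.25 (adjusted p = 0.0657). Bambi, a pseudoreceptor that dampens TGF-beta signals, rose in Ctsd-/- cells over time (2.03 ± 0.34, adjusted p = 0.0132), from 0.584, 0.575 and 0.325 CPM to 2.51, 2.21 and 1.4. This call was lost without replicate 2 or 3 of the 1% FCS Ctsd-/- cells and without replicate 2 of the 1% FCS LT Ctsd-/- cells.

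Of the receptors, 3 of 6 of type I and 1 of 4 of type II were among the 24 with a differing change. Tgfbr2, the TGF-beta type II receptor and the highest type II receptor per kilobase of exon in all 4 cell groups, was at 737, 505 and 308 CPM in Ctsd+/+ and 220, 272 and 289 in Ctsd-/- cells of the 1% FCS groups, and at 219, 201 and 179 in Ctsd+/+ and 283, 267 and 257 in Ctsd-/- cells of the LT groups. Replicates 1 and 2 of the 1% FCS Ctsd+/+ cells lay well above the rest and replicate 3 just above. It changed by -1.37 ± 0.24 (adjusted p = 0.000733) in Ctsd+/+ cells and by 0.05 ± 0.24 (adjusted p = 0.95) in Ctsd-/- cells. Acvr1, the type I receptor ALK2, was at 99.7, 125 and 91.8 CPM in Ctsd+/+ and 42.1, 40.4 and 39.8 in Ctsd-/- cells of the 1% FCS groups, and at 34.5, 28.9 and 30.3 in Ctsd+/+ and 48.8, 41 and 39.1 in Ctsd-/- cells of the LT groups. It was higher in each 1% FCS Ctsd+/+ library than in any other, with a genotype difference of -1.37 ± 0.13 (adjusted p = 7.25e-06) in 1% FCS. Bmpr2, the BMP type II receptor, was lowest in 1% FCS LT Ctsd+/+ cells and differed by 1.04 ± 0.16 (adjusted p = 0.000323) in 1% FCS LT.

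Acvrl1, the type I receptor ALK1 known from endothelium, was at 3.57, 2.99 and 4.63 CPM in Ctsd+/+ and 6.76, 5.28 and 5.32 in Ctsd-/- cells of the 1% FCS groups, and at 0.27, 0.48 and 1.06 in Ctsd+/+ and 3.14, 4.74 and 4.6 in Ctsd-/- cells of the LT groups. It lay below all other cell libraries in 1% FCS LT Ctsd+/+ cells, with a difference between genotypes of 2.77 ± 0.41 (adjusted p = 0.000247). Bmpr1b was at 0 to 3 counts in 1% FCS LT libraries of both genotypes, and at least 14.8-fold lower in 1% FCS LT than in 1% FCS Ctsd+/+ cells, where it stood at 0.39, 1.13 and 2.07 CPM. Acvr2b was higher in Ctsd-/- cells in 1% FCS (1.16 ± 0.26, adjusted p = 0.00308), at 3.55, 2.05 and 2.31 against 0.99, 1.31 and 1.23 CPM, and the call was lost without replicate 1 of the 1% FCS Ctsd-/- cells. The type I receptors Tgfbr1, Bmpr1a and Acvr1b and the type II receptor Acvr2a passed both thresholds in none of the 5 comparisons, with log2 FCs between -0.47 and 0.59.

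Both co-receptors differed in their changes. Tgfbr3, betaglycan, which presents TGF-beta to its receptors, was at 21.7, 10.7 and 5.42 CPM in Ctsd+/+ and 1.36, 0.0822 and 0.148 in Ctsd-/- cells of the 1% FCS groups, and at 0.621, 0.879 and 2.51 in Ctsd+/+ and 26.6, 8.42 and 2.08 in Ctsd-/- cells of the LT groups. It fell in Ctsd+/+ cells over time (-3.23 ± 1.02, adjusted p = 0.0216). In Ctsd-/- cells the values in 1% FCS LT all lay above those in 1% FCS, but the change did not pass, at 4.49 ± 1.11 (adjusted p = 0.0579). The difference of both changes was 7.72 ± 1.51 (adjusted p = 0.00259), the highest of the 24. Eng, endoglin, was low at 2.28, 2.2 and 1.73 CPM in Ctsd+/+ and 1.19, 1.78 and 1.39 in Ctsd-/- cells of the 1% FCS groups, and at 0.703, 0.719 and 1.06 in Ctsd+/+ and 2.3, 1.88 and 1.23 in Ctsd-/- cells of the LT groups. It was 1.12 ± 0.30 (adjusted p = 0.0117) higher in 1% FCS LT Ctsd-/- than Ctsd+/+ cells on the log2 scale, with each library above. The summed endothelial markers were at most 9.49 CPM in any cell library.

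Of the Smads that carry the signal, Smad1, Smad2, Smad3, Smad4 and Smad5, none passed both thresholds in any of the 5 comparisons, although several differences passed the adjusted p alone. Their log2 FCs lay between -0.48 and 0.86. Smad2, a TGF-beta and activin effector, was at 70.9, 68.4 and 70.3 CPM in Ctsd+/+ and 87.6, 102 and 94.6 in Ctsd-/- cells of the 1% FCS groups, and at 53.5, 46.4 and 51.3 in Ctsd+/+ and 91.5, 89.7 and 93.4 in Ctsd-/- cells of the LT groups. It passed the adjusted p alone in 1% FCS (0.44 ± 0.09, adjusted p = 0.00145) and in 1% FCS LT (0.86 ± 0.09, adjusted p = 1.78e-05), and each Ctsd-/- library lay above each Ctsd+/+ library. Smad3 was the highest of the 5 per kilobase of exon in all 4 cell groups, at 24.2 to 40.8 CPM per kb. Smad5, a BMP effector, had log2 FCs between -0.17 and -0.05.

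Among the inhibitors inside the cell, Smurf2, a ubiquitin ligase for Smads and receptors, was at 166, 207 and 148 CPM in Ctsd+/+ and 203, 229 and 250 in Ctsd-/- cells of the 1% FCS groups, and at 65.1, 61 and 70.7 in Ctsd+/+ and 201, 213 and 243 in Ctsd-/- cells of the LT groups. The 1% FCS LT Ctsd+/+ libraries stood below all others, with a change of -1.40 ± 0.14 (adjusted p = 9.88e-06). In Ctsd-/- cells it was -0.06 ± 0.13 (adjusted p = 0.876). Ski, a corepressor of Smads, was at 295, 276 and 174 CPM in Ctsd+/+ and 73.2, 66.6 and 69.7 in Ctsd-/- cells of the 1% FCS groups, and at 74.3, 73.8 and 73.7 in Ctsd+/+ and 90.5, 74.8 and 61.8 in Ctsd-/- cells of the LT groups. It was higher in 1% FCS Ctsd+/+ cells than in the other 9 libraries, with a genotype difference of -1.83 ± 0.18 (adjusted p = 1.09e-05) in 1% FCS. Smad7, which blocks type I receptors, fell in Ctsd+/+ cells over time (-1.21 ± 0.15, adjusted p = 6.93e-05). Smad6, which blocks BMP signals, was at 39.5, 8.58 and 4.92 CPM in Ctsd+/+ and 1.7, 0.466 and 0.443 in Ctsd-/- cells of the 1% FCS groups, and at 1.92, 4.72 and 4.72 in Ctsd+/+ and 3.57, 3.12 and 0.822 in Ctsd-/- cells of the LT groups. It was lower in 1% FCS Ctsd-/- cells (-4.32 ± 0.90, adjusted p = 0.00194), and the difference of both changes (3.72 ± 1.16, adjusted p = 0.0305) was lost in 8 of 21 settings. Without replicate 1 of 1% FCS Ctsd+/+ cells these were -2.93, still called, and 2.34, no longer called. Smurf1 and Skil did not pass at an absolute log2 FC above 1.

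Of the targets, the Id genes code for inhibitors of basic helix-loop-helix factors and respond to BMPs in many cells. Id3 was at 215, 54.1 and 56 CPM in Ctsd+/+ and 52, 47.8 and 62.6 in Ctsd-/- cells of the 1% FCS groups, and at 14, 27.5 and 10.9 in Ctsd+/+ and 62.2, 55.6 and 34.9 in Ctsd-/- cells of the LT groups. It was lowest in 1% FCS LT Ctsd+/+ cells and fell there over time (-2.64 ± 0.53, adjusted p = 0.00165). The fall was -1.66 without replicate 1 of the 1% FCS Ctsd+/+ cells and -1.41 within LR-38862, both still called, and the difference of both changes without that replicate was 1.57. Id1 was at 108, 29.8 and 16.7 CPM in Ctsd+/+ and 16.4, 8 and 10.9 in Ctsd-/- cells of the 1% FCS groups, and at 18.1, 31.9 and 18.1 in Ctsd+/+ and 26.7, 15.6 and 11.1 in Ctsd-/- cells of the LT groups. It was lower in Ctsd-/- cells in 1% FCS (-2.12 ± 0.60, adjusted p = 0.0121), and the call was lost without replicate 1 of 1% FCS Ctsd+/+ cells (-0.98) or replicate 2 of 1% FCS Ctsd-/- cells. Id2 was at 60.5, 14.9 and 5.78 CPM in Ctsd+/+ and 7.35, 3.81 and 3.55 in Ctsd-/- cells of the 1% FCS groups, and at 40.9, 77.8 and 43.8 in Ctsd+/+ and 31.7, 22.3 and 10.5 in Ctsd-/- cells of the LT groups. In contrast to Id3, its levels in 1% FCS LT Ctsd+/+ cells lay above those of all Ctsd-/- cells, though the difference in 1% FCS LT (-1.33 ± 0.68, adjusted p = 0.145) did not pass. In 1% FCS it was lower in Ctsd-/- cells (-2.46 ± 0.73, adjusted p = 0.015), with overlap, and at -1.06 and no longer called without replicate 1 of 1% FCS Ctsd+/+ cells. Id4 passed in 0 of the 5 comparisons. Tgfbi, a secreted adhesion protein induced by TGF-beta, was at 0.09, 1.13 and 1.18 CPM in Ctsd+/+ and 0.146, 0.192 and 0.65 in Ctsd-/- cells of the 1% FCS groups, and at 3.19, 3.22 and 0.913 in Ctsd+/+ and 0.479, 0.618 and 0.556 in Ctsd-/- cells of the LT groups, and was lower in 1% FCS LT Ctsd-/- cells (-2.14 ± 0.75, adjusted p = 0.0389). This call was lost in limma-voom and without any 1 of 5 of the 6 LT libraries, that is, all but replicate 3 of Ctsd+/+ cells.

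The further pathway genes, 119 in 6 lists chosen by name, were counted in the same way. Among all genes tested, 11% had a positive and 8.12% a negative difference of both changes, with a median of -0.0035. Of the TGF-beta response genes, 9 of 21 tested had a positive and 1 a negative difference of both changes, with a list median of 0.91. Col1a1, a fibrillar collagen gene (9.98 ± 1.12, adjusted p = 6.24e-05), was among them, and Itgb3, an integrin subunit gene, was listed at 0 counts in all 3 libraries of 1% FCS LT Ctsd+/+ cells. Of the BMP response genes, 6 of 11 tested had a positive and 2 a negative difference, among them Gata2 (8.30 ± 1.24, adjusted p = 0.000459) and Dlx3 (-5.26 ± 0.71, adjusted p = 0.000216). The extracellular regulators had 10 of 17 positive and 2 negative differences, with Lrrc32, the gene of the TGF-beta docking receptor GARP, at 7.67 ± 1.08 (adjusted p = 0.000297). Of 6 ligands tested 2 were positive, of 5 receptors 2 were positive, and of 25 intracellular regulators 1 was negative. The median of the intracellular regulators was -0.15. Cdkn2b, a cyclin-dependent kinase inhibitor gene known as a TGF-beta target, was at 0 counts in all 6 libraries of Ctsd+/+ cells and at 58.7, 58.6 and 53.5 CPM in Ctsd-/- cells of 1% FCS and 30.2, 27.7 and 30.9 CPM in those of 1% FCS LT, at least 622-fold and at least 365-fold higher against 3 counts per library.

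In tumors no pathway member passed the adjusted test between the genotypes. Nog and Grem1 were too low to be tested. Of the other 48 members, 0 were higher and 0 lower in Ctsd-/- tumors at an adjusted p under 0.05, where 0.00537% of 18617 genes were higher and 0% lower. DESeq2 and limma-voom also gave 0 at an adjusted p under 0.05, and edgeR gave 5 members at an unadjusted p under 0.05. At the looser threshold used for tumors, an unadjusted p under 0.1, 5 members were higher and 1 was lower, against 8.44% and 8.27% of all genes. The median log2 FC of the members was 0.12, against 0.00 over all genes. Control and Ctsd-/- tumors carry different LR numbers in their library names (LR-23260 and LR-23259), so that these and the genotype cannot be told apart. In bulk tumors, fewer cells of a type and less RNA per cell cannot be told apart either.

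The co-receptor Eng was at 21.1, 23.9, 13.3 and 9.49 CPM in the control tumors and 19.5, 24.1, 54.2 and 71.8 in the Ctsd-/- tumors. Ctsd-/- tumors 3 and 4 were high, while Ctsd-/- tumors 1 and 2 overlapped with the controls. The log2 FC was 1.32 ± 0.45 (unadjusted p = 0.0138, adjusted p = 0.513). Ltbp4 was at 21.5, 28.3, 16.1 and 8.42 CPM in the control tumors and 15.7, 25.1, 65.7 and 57.2 in the Ctsd-/- tumors, again high in Ctsd-/- tumors 3 and 4, with a log2 FC of 1.14 ± 0.48 (unadjusted p = 0.0397). Bmp6 was at 0.573, 0.371, 0.265 and 0 CPM in the control tumors and 0.805, 0.43, 1.92 and 3.58 in the Ctsd-/- tumors, with a log2 FC of 2.44 ± 0.92 (unadjusted p = 0.0236). The groups overlapped for both genes.

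Id1 was at 9.62, 18.8, 12.1 and 17.6 CPM in the control tumors and 15.7, 15.5, 39.2 and 31.4 in the Ctsd-/- tumors. The same 2 tumors stood out, and the log2 FC was 0.81 ± 0.36 (unadjusted p = 0.0456). Smad6 was at 1.54, 1.42, 1.23 and 0.862 CPM in the control tumors and 1.55, 1.69, 2.41 and 2.64 in the Ctsd-/- tumors, and was the 1 tested member whose groups did not overlap, by a narrow margin, as for 4.15% of all genes. Its log2 FC was 0.71 ± 0.35 (unadjusted p = 0.0673). Control tumor 4 was the lowest of all tumors for Eng, Ltbp4, Bmp6 and Smad6. It had the fewest counts, and 15.57% of its reads were ambiguous between genes, against 7.11 to 12.38% in the others. Without control tumor 4, 5 of the 6 members with an unadjusted p under 0.1 kept it, and Smad6 did not. The part of this library's quality in the values was not tested. Inhba was at 2.17, 3.29, 2.87 and 3.53 CPM in the control tumors and 0.851, 2.57, 1.51 and 0.796 in the Ctsd-/- tumors, lower in Ctsd-/- tumors by a log2 FC of -1.05 ± 0.43 (unadjusted p = 0.0339), with 1 Ctsd-/- tumor within the range of the controls. Without Ctsd-/- tumors 3 and 4, an alternative added after the data were seen, none of these 6 had an unadjusted p under 0.1, and their log2 FCs were 0.37 for Eng, 0.14 for Ltbp4, 1.01 for Bmp6, 0.11 for Id1, 0.36 for Smad6 and -0.79 for Inhba.

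**Figure D4:**
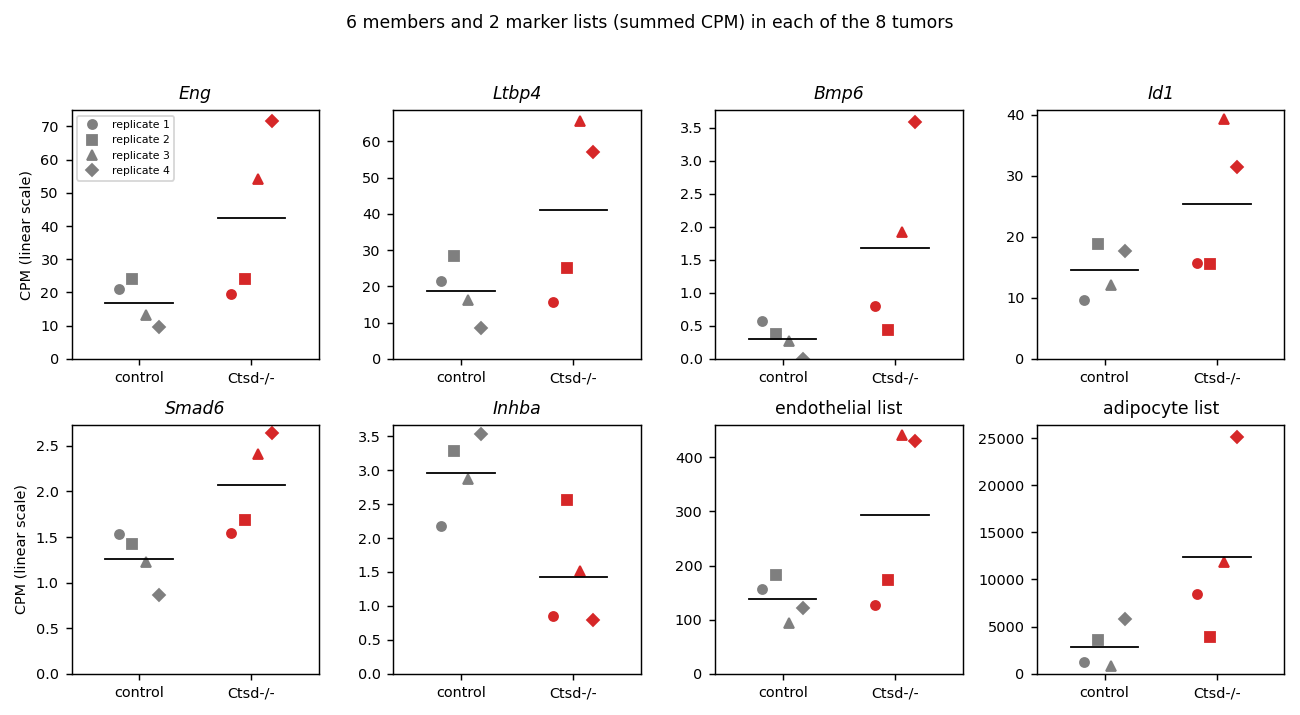
CPM (y axis, from 0) of the 6 members with an unadjusted p under 0.1 and summed CPM of the endothelial and adipocyte marker lists in each of the 4 control and 4 Ctsd-/- tumors, with a symbol for each replicate number and a line for the group mean. Ctsd-/- tumors 3 and 4 (triangle and diamond) are the 2 highest for Eng, Ltbp4, Bmp6, Id1, Smad6 and both marker lists.

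Markers of other cell types moved with these values. The 9 endothelial markers summed to 157, 183, 94.1 and 122 CPM in the control tumors and to 127, 173, 442 and 431 in the Ctsd-/- tumors, and 7 of 9 were higher at an unadjusted p under 0.1. The 8 adipocyte markers summed to 856 to 5816 CPM in control and 3886 to 25154 in Ctsd-/- tumors, and 8 of 8 were higher at that threshold. The 7 basal and myoepithelial markers summed to 971, 1237, 745 and 510 CPM in control and 541, 775, 2085 and 1343 in Ctsd-/- tumors, again highest in Ctsd-/- tumors 3 and 4, with 2 of 7 higher at that threshold. Of the other lists, 2 of 8 fibroblast and mural and 1 of 8 lymphocyte markers were higher, and 0 macrophage, luminal and proliferation markers. With the endothelial markers as a covariate 0 members were higher and 2 others were lower, and Eng, Ltbp4, Bmp6, Id1, Smad6 and Inhba no longer passed. The same 6 were lost with the adipocyte markers as a covariate, although 5 other members then passed. Whether the markers account for the differences was not tested.

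Levels in tumors give the setting of the cultured cells, but tumors and cells differed in RNA input and library strand and were not tested against each other. Per kilobase of exon, Id2 was the highest member in both tumor groups, at 188 CPM per kb in control and 154 in Ctsd-/- tumors, followed by Tgfb3 at 81.3 and 80.5. Tgfb1 was the lowest of the 7 TGF-beta, activin and GDF ligands in both, at 0.154 and 0.212 CPM per kb. Tgfb3, Tgfb2 and Inhbb overlapped between the genotypes, with Tgfb3 at 407, 356, 189 and 149 CPM in the control tumors and 294, 379, 150 and 267 in the Ctsd-/- tumors. Of the type II receptors Tgfbr2 was again highest, at 16.0 and 18.6 CPM per kb. Tumor counts of Fstl3 are uncertain, since 47.3% of its exon bases are shared with Prss57 on the opposite strand and these counts ignore strand. For all other members the share was at most 9.3%.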

How the data were processed

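The authors deposited counts of reads per gene for each library, made with Trimmomatic and STAR on GRCm38/mm10, unpooled, with versions not given in the sources used here. Counts that ignore strand were used for tumors. For cells the column of the opposite strand was used. It held 97.1 to 97.3% of gene counts in cells, and 52.8 to 53.7% in tumors. Symbols and coordinates came from GENCODE M21, which held 45143 of 45706 identifiers.

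Counts were fitted with edgeR 4.0.16 (TMM, filterByExpr, quasi-likelihood F-test) in R 4.3.3, tumors and cells apart, with Benjamini-Hochberg adjustment over all genes. Calls in cells took 0.05 as the limit for the adjusted p and 1 for the size of the log2 FC, and in tumors an unadjusted p under 0.1. The SE is the absolute log2 FC divided by the square root of F. Where every library of a group held at most 3 counts, a bound against 3 counts per library is given. These floors cover counting error only. DESeq2 1.42.0, limma-voom 3.58.1, other scalings, filters, covariates, LR subsets and leaving out each library were tried as alternatives. On simulated data edgeR recovered 92% of 200 changed genes in the tumor comparison (18171 genes). It recovered 97% of 200 in the comparison of cells in 1% FCS (14889 genes). These genes had a mean above 1 CPM and were changed by a log2 FC of 2 or 3. In tumors 86% were recovered at 2 and 98% at 3, and in cells 95% and 99%. Recovery at a smaller log2 FC or a lower level was not tested. At an adjusted p under 0.05 alone, 5.15% of edgeR's calls were false in simulated tumors and 5.83% in cells. These shares were 3.26% and 6.7% for limma-voom, and 23.2% and 20.24% for DESeq2. Members and lists were chosen with earlier results of these data known. All members could be named, those called by their values in each library, and up to 3 further pathway genes per list and direction with the largest changes among those called. A further pathway gene that this rule names is not reported here.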

Additional observations from a re-analysis of the deposited data

Results flagged for a closer look

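The change from 1% FCS to 1% FCS LT differed between the genotypes for 24 members in edgeR's test of the difference itself. The log2 difference, Ctsd-/- minus Ctsd+/+ cells, was above 4 for Tgfbr3 (7.72), Ltbp2 (7.28), Nog (5.59), Bmpr1b (5.35), Tgfb2 (5.20), Bmp2 (4.75) and Tgfb3 (4.25). It lay between 2 and 4 for Smad6 (3.72), Tgfb1 (3.35), Gdf11 (3.30), Bmp4 (3.22), Ltbp1 (2.77), Fstl3 (2.56), Id3 (2.55) and Acvrl1 (2.13). It was below 2 for Ski (1.86), Acvr1 (1.83), Eng (1.62), Ltbp4 (1.58), Bambi (1.48), Tgfbr2 (1.42), Smurf2 (1.35), Inhbb (1.16) and Bmp1 (1.10). The values of Nog and Bmpr1b rest on groups at or under 3 counts per library and depend on the prior count. Of 21 alternative settings, 10 each lost the call of Ltbp4 and of Bambi, 8 that of Smad6, 5 that of Bmpr1b, 4 that of Bmp1, 2 that of Tgfbr2 and 1 each those of Bmp2, Bmp4 and Eng. Without replicate 1 of 1% FCS Ctsd+/+ cells the difference was 1.81 for Bmp4 and 1.57 for Id3, both still called, and without replicate 1 of 1% FCS LT Ctsd-/- cells it was 3.12 for Bmp2.

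In tumors, 4 of 100 groups of 4 libraries held a value apart from the other 3 by Dixon's ratio, and chance gives about 1 in 20. Id3 was at 138 CPM in control tumor 4, with the next at 67.2. Bambi was at 2.47 CPM in control tumor 1, with the next at 5.92. Grem1 was at 0.166 CPM in control tumor 1 and 0.415 CPM in Ctsd-/- tumor 2, and was too low to be tested.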

How the results depend on the processing

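In the test of the difference, between 20 and 24 of the 24 members stayed called in each of 21 alternatives, and 15 stayed in every one. The count was 27 with DESeq2, 22 with limma-voom and 21 within LR-38862, and 20 to 27 with 1 library left out, with 0 negative throughout. In 1% FCS, leaving out 1 library gave 1 to 2 higher and 15 to 21 lower members, and within LR-38862 or without 1% FCS replicate 1 of both genotypes (added after the data were seen) 1 was higher. In 1% FCS LT it gave 10 to 17 higher and 2 to 5 lower, and 5 were lower without 1% FCS replicate 1 of both genotypes. Over time in Ctsd+/+ cells it gave 1 to 3 higher and 23 to 27 lower, with 0 higher in limma-voom and 3 higher within LR-38862 and without both replicates 1. Over time in Ctsd-/- cells it gave 0 to 4 higher and 0 to 1 lower, with 5 higher in DESeq2, 1 in limma-voom, 6 with all genes kept whatever their counts, and within LR-38862 6 higher and 1 lower. Without 1% FCS Ctsd-/- replicate 2 or 3, 0 were higher there.

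In tumors, leaving out 1 library gave 2 to 7 higher and 1 to 3 lower members at an unadjusted p under 0.1, with 2 higher without Ctsd-/- tumor 3 or 4, 3 without control tumor 3 and 3 lower without Ctsd-/- tumor 1. Without both Ctsd-/- tumors 3 and 4 there were 0 and 0. DESeq2 gave 2 lower and the luminal covariate 0. The endothelial covariate gave 0 higher and 2 lower and turned Ltbp4 to -0.10. The adipocyte covariate gave 3 higher and 2 lower and turned Ltbp4 to -0.14, Eng to -0.044 and Id1 to -0.51. The cause was not tested in any of these.

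Over all groups replicate numbers did not consistently pair the libraries. Deviations of same-numbered libraries correlated between -0.295 and 0.362 in cells and between -0.303 and -0.00755 in tumors. In cells every same-numbered pair without 1% FCS LT Ctsd+/+ cells correlated positively, between 0.068 and 0.362. All negative values in cells involved 1% FCS LT Ctsd+/+ cells. Between the genotypes in 1% FCS the 3 pairs correlated at 0.362, 0.1 and 0.299, replicates 1 share an LR number, and the replicate block changed 0 calls. With the block, 2 members were higher in tumors (without Ltbp4, Bmp6 and Smad6). In 1% FCS LT, Tgfbr3 and Bmp2 were lost and Tgfb2, Ltbp4, Grem1 and Id2 were gained, with 6 lower. Over time in Ctsd+/+ cells Smad6 was lost and Id2 gained (2 higher), in Ctsd-/- cells Tgfbr3 was gained, and the difference was called for 23, without Ltbp4.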
